A study of Drosophila melanogaster with 3 samples.

Results

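The genes described here are the small nucleolar RNA (snoRNA) and small nuclear RNA (snRNA) genes of Drosophila melanogaster, chosen by their annotated biotype on the 6 chromosome arms of the dm6 assembly. They number 301 of the 18164 annotated genes considered, 32 of them snRNA genes and 269 snoRNA genes, of which 16 carry a scaRNA symbol (small Cajal body RNA). Binding of the protein CG10543 was mapped by chromatin immunoprecipitation sequencing (ChIP-seq), in which DNA bound by a protein is precipitated and sequenced. The material was whole embryos, male and female pooled and collected from 0 to 24 h, of a transgenic line stably expressing CG10543 with eGFP (enhanced green fluorescent protein) fused to its C terminus, and an antibody against GFP was used for the precipitation. The 3 biological replicates form a single group, which leaves nothing to compare between groups. No embryos without the tagged protein were analysed here, so signal that does not come from CG10543 cannot be told apart from its binding.

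Spliceosomal snRNAs (U1, U2, U4, U5 and U6, and the minor U11, U12, U4atac and U6atac) pair with precursor messenger RNA and with each other during splicing, 7SK RNA holds the elongation kinase P-TEFb inactive, and U7 takes part in the processing of histone messenger RNA. SnoRNAs guide chemical modification of ribosomal RNA: box C/D snoRNAs (Me symbols in the fly annotation) direct ribose methylation, box H/ACA snoRNAs (Psi symbols) direct pseudouridylation, orphan snoRNAs (Or symbols) have no assigned target, and scaRNAs guide the modification of snRNAs. Fly snRNA genes have their own promoters, whereas most fly snoRNAs lie in introns of other genes and are cut out of the host transcript, so that the start of the host gene is also the start of their synthesis. The Uhg genes are noncoding hosts of this kind, and many other hosts encode ribosomal proteins.

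The starts of the snRNA genes are shown first because fly snRNA promoters carry a known element. Each line gives 80 bases, from 75 before the annotated start onward, read 5′ to 3′ on the strand of the gene from the RefSeq copy of Release 6 (dm6). Capitals mark TTCCCAA, the core letters of the proximal sequence element A (PSEA) of fly snRNA promoters, its variant TTCTCAA, and TATAAA, each on either strand (TTTATA is TATAAA on the other strand).
snRNA:7SKa (chr3R:7474992-7475071, minus strand): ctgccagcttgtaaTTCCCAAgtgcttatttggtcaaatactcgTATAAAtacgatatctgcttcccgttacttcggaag
snRNA:U1:95Ca (chr3R:23859626-23859705, minus strand): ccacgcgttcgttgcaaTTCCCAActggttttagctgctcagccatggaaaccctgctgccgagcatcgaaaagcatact
snRNA:U1:21D (chr2L:901650-901729, minus strand): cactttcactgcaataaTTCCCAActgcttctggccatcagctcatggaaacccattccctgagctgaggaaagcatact
snRNA:U6:96Aa (chr3R:24556013-24556092, plus strand): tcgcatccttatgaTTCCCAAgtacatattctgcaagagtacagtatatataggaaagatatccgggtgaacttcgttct
snRNA:U6:96Ab (chr3R:24556617-24556696, plus strand): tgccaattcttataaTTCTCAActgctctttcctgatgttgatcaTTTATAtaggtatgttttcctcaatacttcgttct
snRNA:U6:96Ac (chr3R:24557140-24557219, plus strand): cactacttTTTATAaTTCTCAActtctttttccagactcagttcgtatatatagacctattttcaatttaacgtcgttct
snRNA:7SKb (chr3R:23432794-23432873, plus strand): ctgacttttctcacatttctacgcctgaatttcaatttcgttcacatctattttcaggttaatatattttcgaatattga
In the window from 250 bases before to 50 after the start, TTCCCAA on either strand was present at 26 of the 32 snRNA genes (81.2%), against 963 of all 18164 genes (5.30%). In all 26 it lay on the strand of the gene, with its first base between 61 and 55 bases before the start. Of the other 6 snRNA genes, 5 held the variant near that place, and snRNA:7SKb held neither. The variant was picked after these sequences were read, and 4.63% of all genes held it in the same window. TATAAA was present at 15 of the 32 snRNA genes, a share of 46.9%, beside 43.9% of all genes.

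The second set of sequences is the 101 bases centred on the summits at the starts of 6 host genes, each of which has a snoRNA in an intron within 500 bp of the summit. They are read on the strand of the host, also from RefSeq, and capitals mark ATCGATA, the core of the DNA replication-related element (DRE), on either strand (TATCGAT on the other), so that TATCGATA is a pair of overlapping matches.
RpL28, host of snoRNA:Or-CD11a (chr3L:3222966-3223066, minus strand): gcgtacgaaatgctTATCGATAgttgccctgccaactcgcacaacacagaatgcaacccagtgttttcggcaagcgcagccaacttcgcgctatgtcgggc
RpS29, host of snoRNA:Psi18S-1275 (chr3R:9777994-9778094, plus strand): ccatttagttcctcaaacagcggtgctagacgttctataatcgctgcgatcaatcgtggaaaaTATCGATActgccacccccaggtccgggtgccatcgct
Uhg2, host of snoRNA:Me18S-A1576 (chr2L:9895018-9895118, minus strand): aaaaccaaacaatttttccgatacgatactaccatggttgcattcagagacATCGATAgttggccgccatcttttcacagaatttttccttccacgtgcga
RpS12, host of snoRNA:Me28S-A774b (chr3L:13023248-13023348, plus strand): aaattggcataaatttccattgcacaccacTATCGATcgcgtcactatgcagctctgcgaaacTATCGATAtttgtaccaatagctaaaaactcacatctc
RpL10Ab, host of snoRNA:Psi18S-920 (chr3L:11822744-11822844, plus strand): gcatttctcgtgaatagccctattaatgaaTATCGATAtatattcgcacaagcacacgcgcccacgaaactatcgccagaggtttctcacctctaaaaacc
RpS6, host of snoRNA:Or-aca2 (chrX:7901356-7901456, minus strand): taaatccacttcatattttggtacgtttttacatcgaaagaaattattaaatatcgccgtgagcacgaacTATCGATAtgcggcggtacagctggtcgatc
These are the 6 of 15 distinct summits at intron-hosted genes whose 101-base window holds ATCGATA. The same letters were present in 0 of the 9 distinct summit windows at genes that were not hosted and in 232 of all 7545 summit windows (3.07%). A match is a description of the letters and does not show that a factor binds there.

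For each replicate and for the pool of replicates, the authors deposited 30000 regions with a summit position and a signal value, a length that takes in weak regions, and for all replicates together a set of 7545 regions from the irreproducible discovery rate (IDR), which keeps regions whose ranks repeat between replicates. A gene is counted below as having a summit when an IDR summit lies within 500 bp of its annotated span. A q-value under 0.01 was reached by 12593, 7016 and 7612 regions of replicates 1, 2 and 3, and the values per replicate below use the 7545 regions of highest signal in each. Rank 1 is the strongest region of a list.

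Few small RNA genes had a summit nearby. An IDR summit lay within 500 bp of 28 of the 301 genes, or 9.30% (exact Clopper-Pearson 95% interval 6.27 to 13.2%), against 29.3% of all genes and 29.7% of all other genes. Small RNA genes are short, with a median length of 135 bp, so a fixed distance covers less sequence around them than around a typical gene. Among other genes of 500 bp or shorter the share was 9.16%, so the share of the small RNA genes was close to that of other short genes. In the strongest regions of the replicates, 37, 29 and 33 small RNA genes had a summit in replicates 1, 2 and 3, a mean of 11.0% ± 1.33 (SD, n = 3). The 28 genes shared 24 distinct summits. Within 200 bp instead of 500 bp there were 13 such genes, and within 1000 bp there were 77.

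Genes outside host introns had a summit more often than those inside. Of the 254 genes that lie wholly in an intron of another gene on the same strand (hosted), 16 had a summit, which is 6.30% (exact 95% interval 3.64 to 10.03%). Of the 47 genes that are not hosted, 12 had a summit, which is 25.5% (13.9 to 40.3%). By the same distance, 29.3% of all genes, inside that interval, and 9.16% of other genes of 500 bp or shorter, below it, had a summit. The share of hosted genes was 8.27%, 6.69% and 8.27% in replicates 1, 2 and 3, against 34.0%, 25.5% and 25.5% of genes not hosted, so the ranges over the replicates did not overlap. The difference, hosted minus not hosted, was −19.2 percentage points in the IDR set and −20.6 ± 4.53 over the replicates (SD, n = 3), but −10.03 when summits within 1000 bp were counted. The 3 replicates are 1 group and many genes share a host or a summit, so no test was made of this difference. Without replicate 3, 10 hosted genes and 12 genes not hosted had a summit. Other transfer RNA and noncoding RNA genes of 500 bp or shorter in an intron on the same strand had a summit in 9.4% of cases, beside the 6.30% of the hosted small RNA genes.

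**Figure D1:**
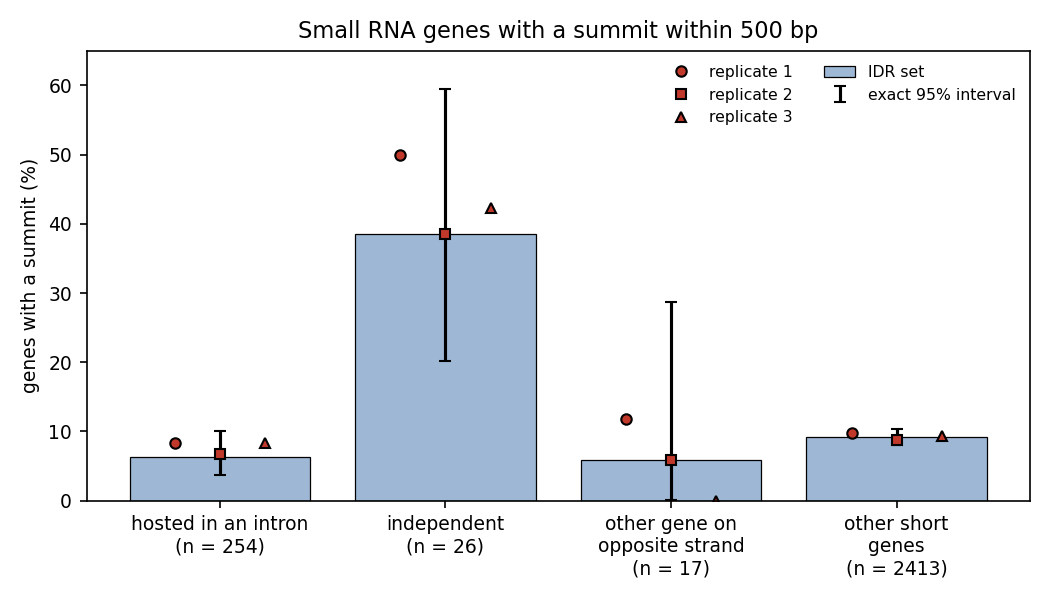
Share of genes with a summit within 500 bp (percent, vertical axis) for hosted, independent and opposite-strand small RNA genes and for other genes of 500 bp or shorter. Bars are the IDR set with exact 95% intervals over genes, and the symbols are the 3 replicates. Independent genes stand highest, at 38.5% in the IDR set, and hosted genes, at 6.30%, lie near the other short genes at 9.16%.

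Within the genes that were not hosted, those that overlap no other gene (independent) carried most of the summits. A summit was present at 10 of 26 independent genes, or 38.5% (exact 95% interval 20.2 to 59.4%), and at 13, 10 and 11 of the 26 in replicates 1, 2 and 3. The 12 genes not hosted rest on 9 distinct summits. Those that share a summit are all independent genes, and the interval does not allow for this sharing. By the same distance to the span, the share of other genes of 500 bp or shorter was 9.16%, which lies below the interval of 20.2 to 59.4%. The share of all genes by that distance to the span was 29.3%, which lies inside the interval. The share of all genes with a summit within 500 bp of a transcription start site (TSS), a different measure, was 23.9%, which also lies inside it. Only 1 of 17 genes that lie opposite another gene on the other strand had a summit, and 1 of 4 that overlap an exon. Although hosted genes had a summit within 500 bp less often, their median distance to the nearest summit was 1971 bp, against 5411 bp for genes not hosted.

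The snoRNAs can be divided by the class of guide in their symbols. A summit was present at 9 of 106 pseudouridylation guides, 4 of 77 methylation guides, 5 of 21 orphans, 0 of 16 scaRNAs and 6 of 49 others. These shares were 8.49%, 5.19%, 23.8%, 0% and 12.2%, beside 9.16% of other genes of 500 bp or shorter and 29.3% of all genes. Differences between the classes were not tested. A count of 0 among 16 scaRNAs allows a share of up to 18.8% when taken as 3 counts of 16, and the upper bound of the exact 95% interval is 20.6%. Hosted pseudouridylation guides had a summit in 6 of 101 cases, against 3 of 5 that were not hosted, and hosted snoRNAs of all classes in 16 of 243, against 8 of 26 not hosted. Among the snRNA genes 0 of 11 hosted genes had a summit, against 4 of 21 not hosted.

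The strongest summit at any of these genes belonged to 7SK. snRNA:7SKa (FBgn0065099, chromosome 3R, 7474553 to 7474996, minus strand) held an IDR summit at 7474761, inside the transcribed sequence and 235 bp from its start. Its region ranked 31 in replicate 1, 107 in replicate 2 and 32 in replicate 3, and 33 of the 7545 IDR regions, with a pooled signal of 2332. The rank was thus near the top in every replicate, with the weakest place in replicate 2. The nearest TSS of another gene, CG1142, lay 980 bp from the summit, and no 32-base stretch of snRNA:7SKa occurs elsewhere in the assembly. The second annotated copy, snRNA:7SKb on the same arm, which lacks the PSEA core in the lines above, had its nearest summit 12174 bp away.

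Of the 5 U1 genes, which encode the RNA that recognises the start of introns, snRNA:U1:95Ca alone had a summit. The summit lay 25 bp before the gene at 23859655 on chromosome 3R, inside the sequence printed above, and the nearest TSS of another gene, Pli, was 30397 bp away. The region ranked 3443, 2823 and 5131 in replicates 1, 2 and 3 and 3386 in the IDR set. The transcribed sequence of snRNA:U1:95Ca is identical over its 164 bases to snRNA:U1:21D and snRNA:U1:95Cb, whose nearest summits were 29841 and 3913 bp away. The identity among the 5 copies ran from 98.2% to 100%. Every 32-base stretch of snRNA:U1:95Ca occurs again in the assembly, so how reads were divided among the copies could change these values, and this was not tested.

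The 3 U6 genes, whose RNA lies at the catalytic centre of the spliceosome, stand in a row on chromosome 3R and are identical over 107 bases. A single summit at 24557175, ranked 4070, 3272 and 5301 in replicates 1, 2 and 3, lay 40 bp before snRNA:U6:96Ac and 377 bp beyond the end of snRNA:U6:96Ab. It counts for both by the 500-bp distance, and it lies nearest to the start of snRNA:U6:96Ac. snRNA:U6:96Aa, inside an intron of Esyt2, was 981 bp away and has no summit by this distance. The U6 genes are repeated in full as well, so the same limit on the reads applies.

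No other snRNA class had a summit: 0 of 6 U2, 0 of 7 U5 and 0 of 3 U4 genes, and none of the single genes for U11, U12, U4atac, U6atac, U7 and LU. Repeated 32-base stretches made up 100% of snRNA:U2:34ABb, 66.7% of snRNA:U5:38ABb and 52.3% of snRNA:U4:38AB, but 0% of snRNA:U4:25F and snRNA:U6atac. The limit on the reads thus also applies to the counts for U2, U5 and U4, and its part was not tested. The U11 gene came closest, with a summit 618 bp away. The PSEA core stood at its place before 2 snRNA genes with a summit and 24 without one, so the element stood at genes with and without a summit. In single replicates, 6, 4 and 6 of the 32 snRNA genes had a summit in replicates 1, 2 and 3.

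The 8 snoRNA genes with a summit and no host intron lie mostly on arm 2R. snoRNA:Psi18S-176, an independent pseudouridylation guide, had its summit inside the gene, 13 bp from its start, with ranks of 1246, 1664 and 2017 in replicates 1, 2 and 3. snoRNA:185 had a summit 38 bp before it, with ranks of 1988, 1852 and 1723 (1854 ± 133, SD, n = 3). A transfer RNA gene, tRNA:Glu-TTC-1-5, starts 341 bp from the same summit. Both regions were among the 2017 strongest of every replicate. The SDs of their ranks, 386 for snoRNA:Psi18S-176 and 133 for snoRNA:185, were the smallest of the snoRNA genes with a summit and no host.

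A cluster of 3 snoRNA genes on 2R, snoRNA:2R:9445410, snoRNA:2R:9445205 and snoRNA:Psi28S-1153, shared a summit at 13558098. It lay 43 bp before the first of them, 248 bp from the next and 412 bp from the last, and the protein-coding gene CG13334 starts 447 bp away. The region ranked 2278, 7277 and 5943 in replicates 1, 2 and 3. All 3 genes point away from the summit in the same direction, so the summit sits before the cluster and is counted 3 times.

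The other 3 snoRNA genes without a host had their best rank in replicate 1. snoRNA:Psi18S-301 held a summit inside its span with ranks of 730, 7488 and 5436. snoRNA:Or-ACA6, an orphan that lies opposite egr (the tumour necrosis factor ligand Eiger), had a summit 370 bp before it with ranks of 3214, 6661 and 7774. snoRNA:CG43051-a, which overlaps an exon of CG43051, had a summit 9 bp before it with ranks of 2157, 12004 and 7353. All 3 lay in the strongest regions of at least 2 replicates.

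Over the 12 genes without a host, the summit lay inside the gene in 3, upstream in 8 and downstream in 1, at a median of 39 bp from the gene. In 9 of the 12 the summit was nearer to the start of that gene than to any other gene start, and in the other 3 (snRNA:U6:96Ab, snoRNA:2R:9445205 and snoRNA:Psi28S-1153) it was nearer to the start of another small RNA gene that shares the summit. In 7 of the 12 another gene, small RNA genes included, also starts within 500 bp of the summit. The 3 genes of the nucleolar U3 RNA, which is needed to process the ribosomal RNA precursor, had no summit. snoRNA:U3:9B was 17792 bp from the nearest summit, snoRNA:U3:54Aa 34270 bp and snoRNA:U3:54Ab 36366 bp, although each had a weaker pooled region outside the IDR set within 500 bp. Since snoRNA:U3:54Aa and snoRNA:U3:54Ab are repeated in full, the limit on the reads applies to them as well. Over all 301 genes, 66 had any pooled region within 500 bp, beside 662 of 2413 other genes of 500 bp or shorter.

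**Figure D2:**
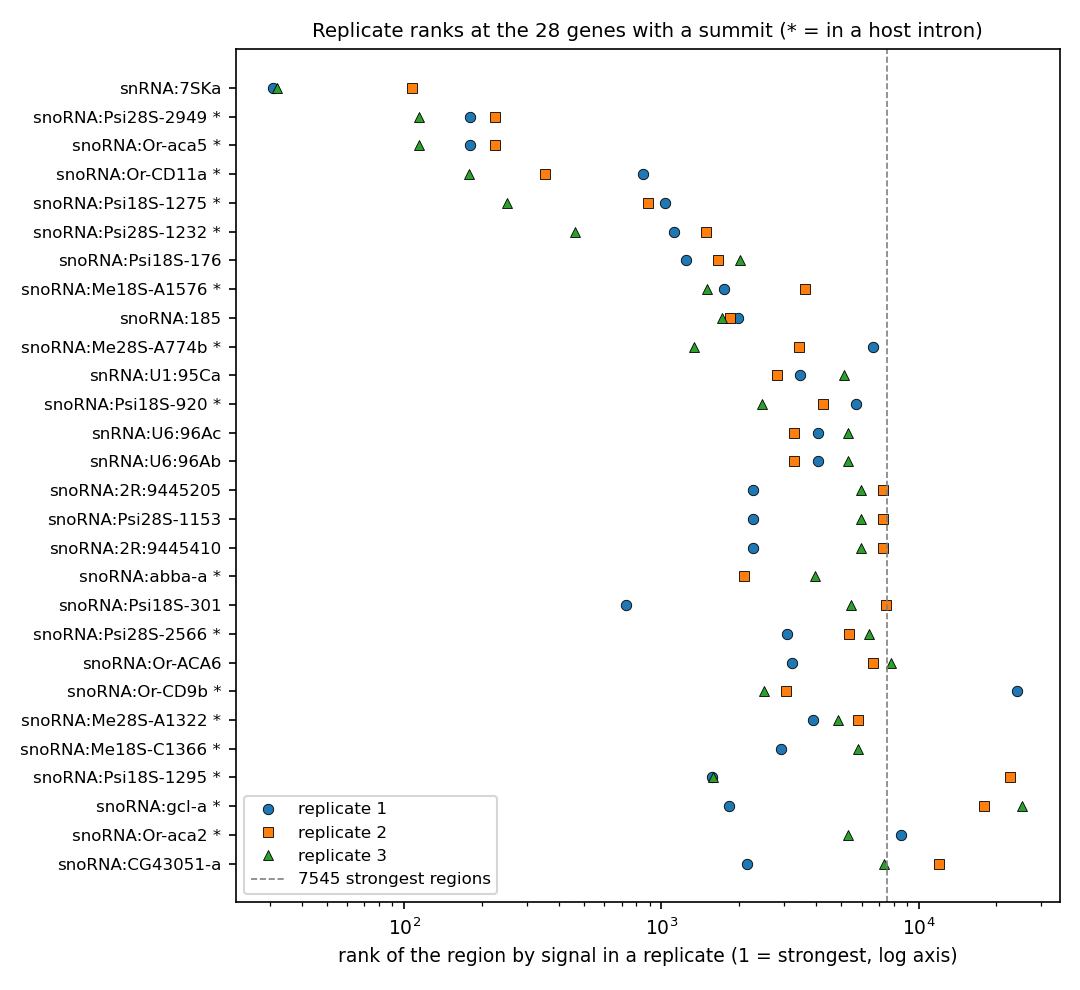
Rank of the region in each replicate (log axis, 1 is strongest) for the 28 small RNA genes with an IDR summit within 500 bp, ordered by IDR rank. Stars mark intron-hosted genes, the dashed line marks 7545 regions, and a missing symbol means that no region matched. snRNA:7SKa stands at the top with ranks of 31, 107 and 32, and 20 of the 28 genes lie left of the line in all 3 replicates.

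The hosted genes with the highest ranks sat in the introns of Uhg4 and of ribosomal protein genes. snoRNA:Psi28S-2949 and the orphan snoRNA:Or-aca5, both in Uhg4 on 2R, shared a summit 38 bp before the Uhg4 TSS. Its ranks were 180, 225 and 114 in replicates 1, 2 and 3 and 149 in the IDR set. It lay 137 bp from snoRNA:Psi28S-2949 and 450 bp from snoRNA:Or-aca5, farther from both than from the host TSS. All 3 replicates placed this summit among their 225 strongest regions.

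Among snoRNAs in genes of the large ribosomal subunit, snoRNA:Or-CD11a in RpL28 had a summit ranked 849, 352 and 179 in replicates 1, 2 and 3, located 56 bp before an RpL28 TSS and 475 bp from the snoRNA. snoRNA:Psi28S-1232 in RpL17 had one ranked 1123, 1485 and 463, located 11 bp before the TSS and 434 bp from the snoRNA. snoRNA:Psi18S-920 in RpL10Ab had one ranked 5722, 4258 and 2452, located 57 bp before the TSS and 190 bp from the snoRNA. In these 3 genes replicate 3 was the strongest, and the summit lay nearer to the host TSS.

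In the 4 hosts of the small subunit the summit was likewise nearer to the host TSS. snoRNA:Psi18S-1275 in RpS29 had a summit 2 bp after the TSS and 354 bp from the snoRNA, with ranks of 1036, 888 and 250. snoRNA:Me28S-A774b in RpS12 had one 54 bp before the TSS and 282 bp from the snoRNA, with ranks of 6661, 3426 and 1336. At the remaining 2, the summit counted for the snoRNA had no strong region in replicate 2. snoRNA:Psi18S-1295 in RpS20 had a summit 103 bp after the TSS and 326 bp from the snoRNA, with ranks of 1574, 22615 and 1593. Replicate 2 thus held this summit only as a weak region. RpS20 also had a stronger summit 108 bp before the TSS, more than 500 bp from the snoRNA, with ranks of 1574, 544 and 339. In replicate 1 both RpS20 summits were matched to rank 1574. snoRNA:Or-aca2 in RpS6 had one 75 bp before the TSS and 203 bp from the snoRNA, ranked 8571 in replicate 1 and 5305 in replicate 3 and unmatched in replicate 2.

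Apart from Uhg4, 2 noncoding hosts had a member with a summit. snoRNA:Me18S-A1576 in Uhg2 had a summit 65 bp before the Uhg2 TSS and 161 bp from the snoRNA, ranked 1759, 3628 and 1499 in replicates 1, 2 and 3. snoRNA:Me18S-C1366 in Uhg5 had a summit 15 bp before the TSS and 196 bp from the snoRNA, ranked 2917 in replicate 1 and 5826 in replicate 3 and unmatched in replicate 2. Both guide methylation of the small ribosomal RNA, and in both the host TSS was the nearer feature.

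In 5 hosted genes the summit nearest to the snoRNA was nearer to it than to any TSS of the host. snoRNA:Me28S-A1322 lies in eEF1alpha1, which encodes the elongation factor that brings transfer RNA to the ribosome. Its summit was 28 bp from the snoRNA and 447 bp from a host TSS (ranks 3900, 5785 and 4838). That TSS lies downstream of the snoRNA, and the most 5′ TSS of the host was 1960 bp from the summit. snoRNA:gcl-a lies in gcl (germ cell-less, needed for germ cell formation), with a summit 201 bp from the snoRNA and 446 bp from the TSS (ranks 1838, 17890 and 25284). snoRNA:Psi28S-2566 lies in CG3902, with a summit 284 bp from the snoRNA and 1553 bp from the TSS (ranks 3065, 5364 and 6422). The summit of snoRNA:gcl-a was among the strongest regions in replicate 1 alone, whereas the others here were so in all 3.

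The remaining 2 lay far from the host TSS. snoRNA:abba-a in tn (thin, a ubiquitin ligase of muscle) had a summit 328 bp away and 3331 bp from the TSS, unmatched in replicate 1 and ranked 2099 and 3938 in replicates 2 and 3. snoRNA:Or-CD9b in Nop60B, which encodes the pseudouridine synthase of the H/ACA particles, had a summit 468 bp beyond its end and 11743 bp from the host TSS, ranked 24038, 3050 and 2498. That summit was 83 bp from the TSS of another gene, ocm. It is the only hosted case of 16 in which the host was not the gene with the nearest TSS, other small RNA genes left aside. Nop60B also had a slightly stronger summit 323 bp before its TSS (IDR rank 4414, against 4860), and tn had none within 500 bp of a TSS.

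Taking the 16 hosted genes together, the summit nearest to the snoRNA was nearer to a host TSS in 11 and nearer to the snoRNA in 5. Its median distance was 61 bp to the host TSS and 283 bp to the snoRNA, and in 13 of the 16 it was within 500 bp of a host TSS. For snoRNA:Me28S-A1322 that TSS lies downstream of the snoRNA. The summit was upstream of the snoRNA in 15 genes, downstream in 1 and inside it in 0. All 11 cases nearer to the host TSS had ribosomal protein or Uhg hosts, and all 5 nearer to the snoRNA had other protein-coding hosts. The 16 genes share 15 summits, so the cases are not fully separate.

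**Figure D3:**
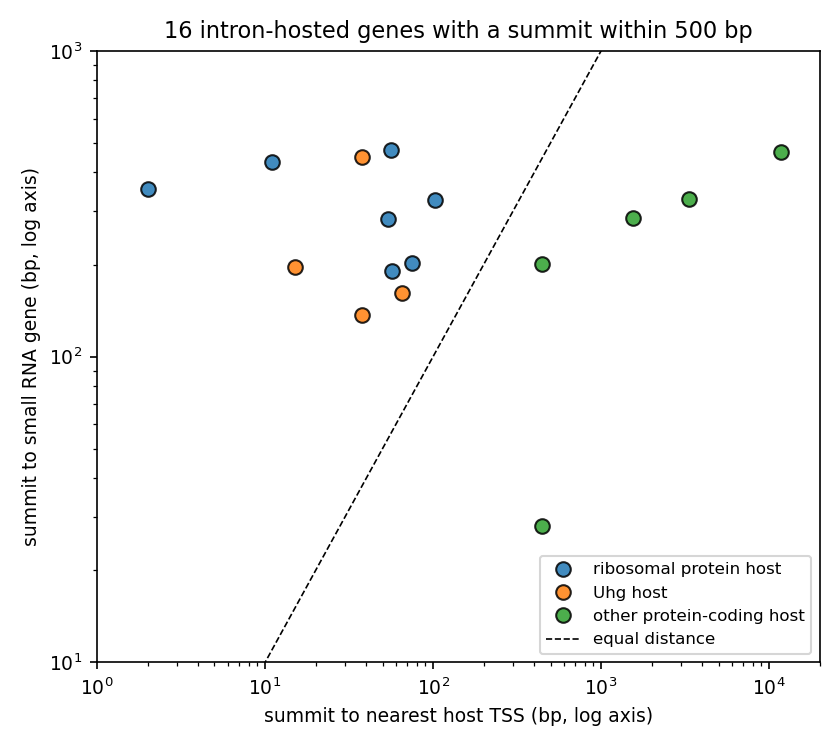
Distance from the summit to the nearest host TSS (horizontal, bp, log axis) and to the small RNA gene (vertical, bp, log axis) for the 16 hosted genes with a summit, coloured by host class. Points left of the dashed line are nearer to the host TSS: 11 genes, all with ribosomal protein or Uhg hosts. The 5 points right of it have other protein-coding hosts.

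Most hosted genes with a summit lay close to a host TSS. Of hosted genes within 500 bp of a host TSS, 12 of 31 had a summit (38.7%, exact 95% interval 21.9 to 57.8%). Farther away the counts were 1 of 48 over 500 and up to 1000 bp, 1 of 77 over 1000 and up to 2000 bp and 2 of 98 beyond 2000 bp. Where the host itself had a summit at its TSS, 12 of 25 hosted genes within 500 bp of the TSS had one, against 0 of 6 where the host had none. A gene close to its host TSS is also close to any summit there, so these counts share that distance and are not separate evidence.

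Most hosted genes had no summit even where the host did. A host with a TSS summit held 177 of the 254 hosted genes, and 162 of these 177 had no summit within 500 bp themselves. The median distance to the host TSS was 324 bp for the 16 hosted genes with a summit and 1633 bp for those without. Just outside the 500-bp limit were snoRNA:Me28S-C3227a in Uhg5 at 502 bp, snoRNA:Me28S-G2173 in RpS16 at 504 bp, snoRNA:U49:66Da in RpL14 at 509 bp, snoRNA:Me18S-C1096 in RpL3 at 517 bp and snoRNA:Me18S-G1620 in Uhg2 at 524 bp. All 5 are hosted, and the summit lay within 164 bp of the host TSS in each. The 5 genes just inside the limit lay 412 to 475 bp from their summits, and 3 of them are hosted with the summit within 56 bp of the host TSS. The other 2 are the independent snoRNA:Psi28S-1153 and snoRNA:Or-CD9b, whose summit is far from its host TSS.

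**Figure D4:**
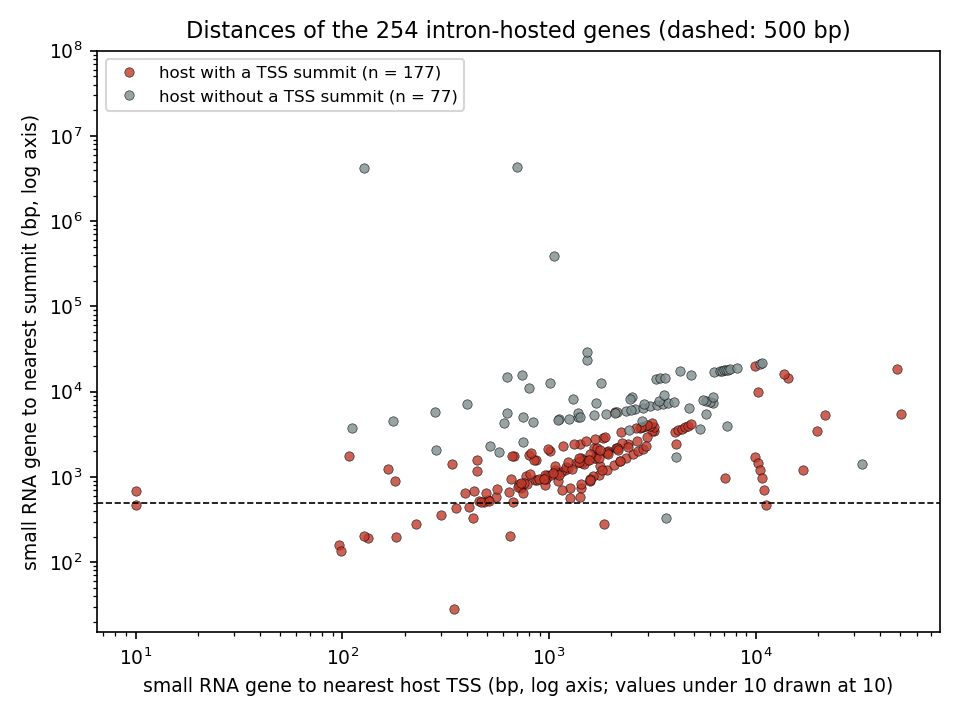
Distance of each of the 254 hosted genes to its nearest host TSS (horizontal, bp) and to its nearest IDR summit (vertical, bp), both on log axes, coloured by whether the host has a summit within 500 bp of a TSS. The dashed line is 500 bp. The 16 genes below it lie mostly close to the TSS of a host with a summit, and the 77 genes in hosts without one lie above it with 1 exception.

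The host genes were examined at their own TSSs, each counted once. The hosted genes lie in 95 hosts, of which 56 hold 1 small RNA gene and 25 hold 3 or more. A summit lay within 500 bp of a TSS in 65 of the 95 hosts, or 68.4% (exact 95% interval 58.1 to 77.6%), against 27.9% of all protein-coding genes and 11.5% of all noncoding RNA genes. The counts in replicates 1, 2 and 3 were 61, 65 and 74 hosts, a mean of 70.2% ± 7.01 (SD, n = 3). Genes with more TSSs have more chances to hold a summit, and among genes with 1 TSS the share was 54.3% of 46 hosts, against 20.2% of 10246 protein-coding genes. In 14 of the 65 hosts with a TSS summit a small RNA gene had one too, and in 51 none did.

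Hosts that encode ribosomal proteins had a TSS summit in 27 of 29 cases, or 93.1% (exact 95% interval 77.2 to 99.2%). Ribosomal protein genes that host no small RNA had one in 43 of 59 cases, or 72.9% (59.7 to 83.6%). The 2 shares were 93.1%, 89.7% and 93.1% in replicates 1, 2 and 3 for the hosts, against 67.8%, 74.6% and 83.1% for the other ribosomal protein genes. The replicate ranges did not overlap, whereas the intervals over genes did, and the difference was not tested. The 2 hosts without a summit were RpL15, whose nearest IDR summit was 4268798 bp away, and RpL5, at 392346 bp. Other protein-coding hosts had a TSS summit in 34 of 58 cases (58.6%).

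Of the 6 Uhg hosts, Uhg2, Uhg4, Uhg5 and Uhg8 had a TSS summit, and the replicates held 3, 3 and 5 of the 6. The strongest summit at Uhg8 lay 102 bp before its TSS and had ranks of 2982 and 3568 in replicates 2 and 3 and no match in replicate 1. Uhg1 and Uhg3 had their nearest summits 3634 and 1809 bp from the TSS. The 2 other noncoding hosts had none.

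**Figure D5:**
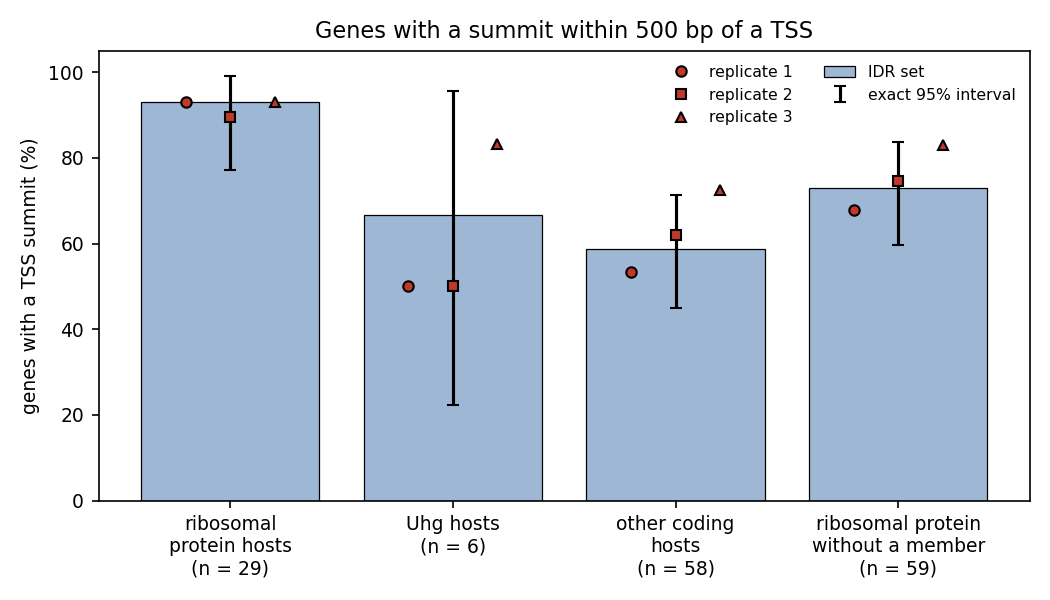
Share of genes with a summit within 500 bp of a TSS (percent, vertical axis) for ribosomal protein hosts, Uhg hosts, other protein-coding hosts and ribosomal protein genes without a small RNA gene. Bars are the IDR set with exact 95% intervals over genes, and the symbols are the 3 replicates. Ribosomal protein hosts stand at 93.1%, against 72.9% of ribosomal protein genes that host none.

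In the 65 hosts with a TSS summit, the strongest summit lay before the TSS in 50 and within 100 bp of it in 42, and the median offset over all 65 was −49 bp. Its median IDR rank was 906 in ribosomal protein hosts and 2237 in other protein-coding hosts. Promoter windows were read at the most 5′ TSS of each host. A summit lay within 500 bp of that TSS in 54 of the 95 hosts, against 65 for any TSS. The windows of hosts with a summit at any TSS held the DRE core in 18 of 65 cases (27.7%). The core was present in 14 of 30 hosts without a summit (46.7%) and in 15.1% of all genes. The Motif 1 core GGTCACA, another element of fly housekeeping promoters, was present in 12 of 65 and 4 of 30 of these windows, and in 8.09% of all genes, on either strand. The windows thus held the DRE core more often where the host had no summit, but some of them lie at another TSS than the summit. The 101-base windows around the strongest TSS summits held it in 10 of 65 hosts (15.4%), 7 of them among the 27 ribosomal protein hosts.

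Hosts with many small RNA genes were found both with and without a TSS summit. Arpc2, which encodes a subunit of the actin-nucleating complex, hosts 17, and its strongest TSS summit ranked 7624, 3048 and 4749 in replicates 1, 2 and 3. None of the 17 had a summit, and the one nearest to the TSS lies 1258 bp from it. Uhg1 with 16, dom (the chromatin remodeller Domino) with 15 and Sf3b3 (a splicing factor subunit) with 9 had no TSS summit, and the nearest summits were 3634, 10890 and 4326 bp away. None of their small RNA genes had a summit within 500 bp.

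The other hosts with the most small RNA genes had a summit at the TSS. RpS5a hosts 14 and had a summit 59 bp before its TSS with ranks of 1628, 1145 and 237. kra (Krasavietz, a translation factor) hosts 8 and had one 23 bp before the TSS with ranks of 101, 926 and 626. RpS7 hosts 7 and had one 28 bp before the TSS with ranks of 953, 1528 and 955. None of the small RNA genes in these 3 hosts had a summit within 500 bp. Hrb98DE, which encodes an RNA-binding protein of the hnRNP family, hosts 7 and had a summit 54 bp after its TSS ranked 2532, 5574 and 6780, again with no summit at the small RNA genes. Uhg5 hosts 11 with 1 at a summit, Uhg4 hosts 7 with 2, and Nop60B hosts 7 with 1.

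Repeated sequence was unequally spread. Among hosted genes, 72 had at least 1 stretch of 32 bases that occurs again in the assembly, and 14 were repeated over more than 50% of their stretches. Among genes not hosted these numbers were 18 and 17. A summit was present at 3 of 72 hosted genes with a repeat and 13 of 182 without, and at 3 of 18 genes not hosted with a repeat and 9 of 29 without. Among genes free of such repeats, the shares were thus 7.14% of hosted genes, against 31.0% of genes not hosted. The part of repeats in the counts was not tested further, since the treatment of reads with several matches is not given in the sources used here.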

How the data were processed

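Regions were analysed from 3 biological replicates, the pool and the IDR set, all on dm6. Per the file headers, replicates and pool were called against a single control alignment. The signal of each region is the deposited enrichment measure of the authors, used here only to rank regions within a list, and the deposited −log10 q-value of the authors was used only for the threshold of 0.01. For the aligner and peak caller, names and settings: not given in the sources used here. Read depth is unknown, since the deposited lists hold no read counts, and intervals cover the counting of genes only.

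Genes came from Ensembl release 115 without transposable elements, and bases from Release 6 as held by RefSeq, with the same coordinates. A gene was hosted when its whole span lay in an intron of a gene of another biotype on the same strand, and the smallest such intron chose the host. Distances to a host used its nearest TSS, whether upstream or downstream of the small RNA gene. Replicate regions were matched to IDR summits within 200 bp. Repeats were stretches of 32 bases found again in the assembly. Motifs were sought on both strands. The counting was tested on simulated data and run with Python 3.11.15, numpy 2.4.6, pandas 2.3.3 and scipy 1.17.1. No p-value was computed.

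The genes, lists and motifs were chosen with earlier results of these data known. Named were all 28 genes with a summit, their hosts, the 10 hosts with the most small RNA genes (with a tie) and the 5 genes just outside 500 bp. U3 genes, U11, 7SKb, the other U1 and U6 copies, Uhg8, Uhg3, RpL15 and RpL5 were named after their values were seen.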

Additional observations from a re-analysis of the deposited data

How the results depend on the processing

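No paired analysis was possible because all 3 replicates belong to 1 group. Of 56 values recomputed under other settings, 45 stayed within 1.5 times the count or 1 SD of the reported value and 11 did not. The difference between hosted and not hosted stayed negative wherever it was recomputed. The other values are counts or shares and have no direction to change. Within 200 bp, 13 genes had a summit, 5 of them hosted, and 4 of those summits were nearer to a host TSS. Within 1000 bp these counts were 77, 61 and 47, and the difference between hosted and not hosted was −10.03 percentage points. With the stronger 50% of the IDR regions, 8 hosted genes had a summit. Leaving out 1 replicate at a time, 10 to 12 hosted genes had one, with 10 without replicate 3. When introns of genes on either strand counted as hosts, the difference was −27.9 percentage points, because genes opposite another gene then count as hosted. The share of small RNA genes whose IDR summit was matched among the strongest regions of a replicate, averaged over replicates, was 7.86% with a match within 100 bp and 8.31% with one within 200 bp. The cause was not tested for the other changes, though a wider distance can only add genes. The unknown depth, the single control and the 47 genes not hosted limit these values. The choice of 500 bp sets the hosted count more than any other setting tried here.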
